A study of Mus musculus with 6 samples.

Results

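Laminins are the cross-shaped glycoproteins on which basement membranes are built, and this account covers the genes of their alpha, beta and gamma chains in a mouse podocyte line. Of 9 laminin chain genes chosen by name, 8 had a row among the 21719 genes of the deposited count table: the alpha chains Lama1, Lama2, Lama3 and Lama5, the beta chains Lamb1, Lamb2 and Lamb3, and the gamma chain Lamc1. Lama4 was not analysed here. MPC5, a mouse podocyte line kept growing by conditional immortalisation, was the source of all 6 libraries, each from cells in high glucose. They formed 2 groups of 3, labelled Setdb2WT (genotype WT) and Setdb2KO (genotype KO). They are called WT-labelled and KO-labelled libraries below. Setdb2 belongs to a family of SET-domain histone methyltransferases. The sources used here do not give how the knockout was made, whether its line is a single clone, or whether replicates are separate cultures. The p-values therefore measure only the spread between these libraries, which may be technical.

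A laminin trimer holds an alpha, a beta and a gamma chain, joined in a coiled coil inside the endoplasmic reticulum before secretion. The alpha chain carries the globular end that binds integrins and dystroglycan on the cell surface, and the short arms of the chains link trimers into a sheet. In the glomerulus, podocytes and endothelial cells build a shared basement membrane. Its immature form holds alpha1 and beta1 chains, and its mature form holds alpha5, beta2 and gamma1. Loss of the beta2 chain causes congenital nephrotic syndrome in people and heavy proteinuria in mice.

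In the KO-labelled libraries, 6 of the 7 laminin chains that could be tested were lower and 1, Lamb2, was higher. The beta2 chain of the mature glomerular membrane thus rose (1.39-fold) while its partners Lama5 and Lamc1 fell (1.33-fold and 1.75-fold), as did the alternative beta chain Lamb1 (1.51-fold). The scarcer epithelial and embryonic chains Lamb3, Lama3 and Lama1 fell 1.86-fold, 3.56-fold and 6.54-fold. Each passed edgeR's quasi-likelihood test at a Benjamini-Hochberg adjusted p threshold of 0.05, and in each the 3 libraries of one label lay wholly to one side of the other 3. These calls are common in this comparison: 83.8% of all 13509 genes tested passed, 42.3% lower and 41.5% higher, and 84.6% did not overlap between the labels. Lama1 and Lama3 fell at least 2-fold, as called genes did in either direction in 32.6% of those tested and downwards in 16.2%. Against a change of 1.5-fold in place of no change (glmTreat), Lama1, Lama3, Lamb3 and Lamc1 passed as lower, beside 45.4% of genes in either direction and 23.1% lower. A count of 7 of 7 is therefore near the background and is no result about the chains. The median log2 fold change of the 7 chains was -0.81, against 0.0045 over all genes tested.

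**Figure D1:**
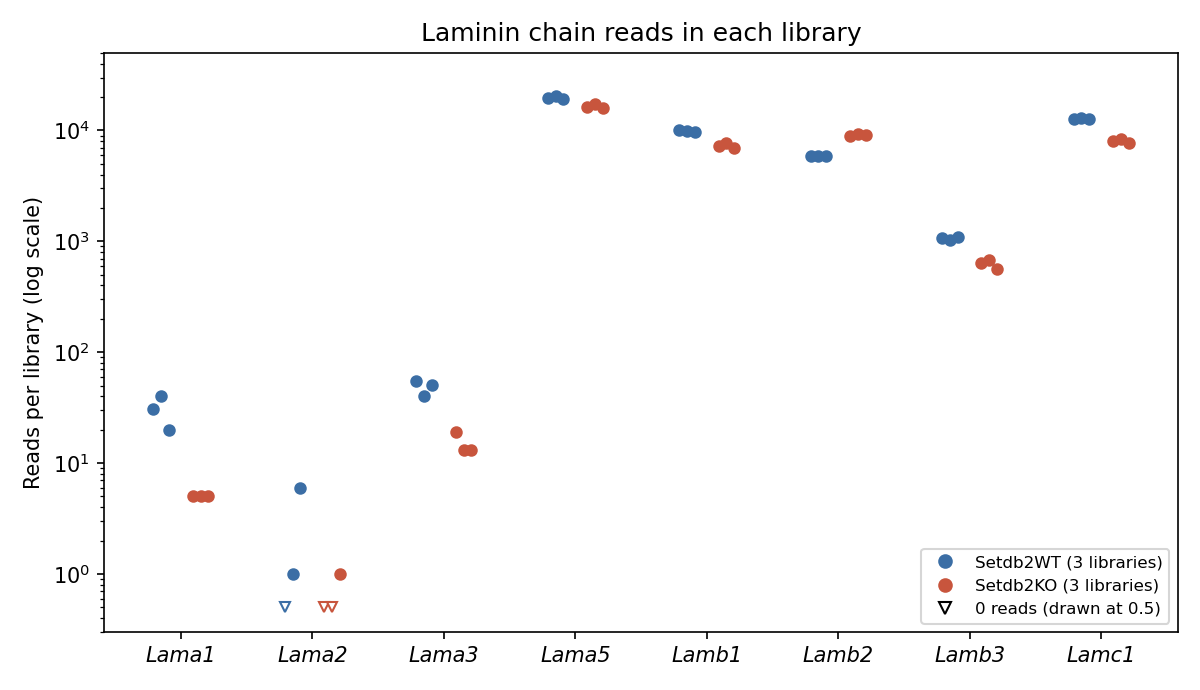
Reads of each of the 8 laminin chains (x axis) in each library on a log scale (y axis), with 3 points per label, blue for Setdb2WT and red for Setdb2KO. Open triangles mark libraries with 0 reads. Lamb2 is the chain whose red points lie above its blue points, and Lama2 is the chain whose labels overlap.

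Some facts of the libraries bear on every value. Totals were 36461449 to 37129174 reads, and the laminin chains together took 1325 to 1355 CPM (counts scaled to library size; here to the raw total) in the WT-labelled libraries and 1107 to 1176 in the KO-labelled libraries. Setdb2 itself had 12, 10 and 9 reads under the WT label and 17, 15 and 25 under the KO label (edgeR adjusted p = 0.088), so the targeted gene was not lower and the groups are called by their labels. Of 13 podocyte markers with a row, Wt1, a transcription factor that defines podocytes, had 3 reads over the WT-labelled libraries and 1 over the KO-labelled ones. Actn4, Cd2ap and Synpo, of the podocyte cytoskeleton and slit diaphragm, were each above 23 CPM in every library. The summed level of the 13 markers was 1360 to 1366 CPM against 1219 to 1316 CPM, with 5 higher and 5 lower of 11 tested. Most of that sum was Actn4 and Cd2ap, which moved in opposite directions. Actn4 fell from 716 CPM to 515 to 542 CPM, and Cd2ap rose from 410 to 418 CPM to 560 to 692 CPM. Among the others, Podxl fell from 48.7 to 51.8 CPM to 4.55 to 5.29 CPM. Vegfa rose from 29.6 to 30.9 CPM to 61.0 to 65.2 CPM, and Clic5 had 27 against 3 reads.

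Markers of other cell types moved as well. Of 7 parietal epithelium markers 5 of 6 tested fell and 1 rose, with a sum of 3049 to 3091 CPM against 1069 to 1152 CPM. All 6 tested of the 7 mesangial markers with a row fell, from 133 to 138 CPM to 31.98 to 34.4 CPM. Both tested fibroblast markers, Vim and Col1a1, fell, the latter from 760 to 195 reads. The fibroblast sum dropped from 2266 to 2347 CPM to 604 to 612 CPM, almost all of it Vim. Col3a1, Lum and Dcn stayed under 0.15 CPM in every library. Endothelial markers summed to 10.5 to 11.4 CPM against 6.91 to 8.09 CPM (1 higher and 3 lower of 4 tested), with Cdh5, Emcn and Tie1 at 2 reads or fewer under either label. Most of that sum was Kdr and Ehd3, which fell from 387 to 228 and from 609 to 348 reads. Esam rose from 28 to 202 reads, and Pecam1, which was not tested, had 8 against 39. Tubular markers summed to 1090 to 1105 CPM against 433 to 455 CPM (2 higher and 3 lower of 5 tested), and immune markers to 25.7 to 27.1 CPM against 15.3 to 18.2 CPM (1 higher and 2 lower of 3 tested). The part of these shifts in the laminin values was not tested, and in bulk RNA fewer cells of a type and less RNA per cell cannot be told apart.

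The promoters of Lama5, Lamb1 and Lamb2 are shown because their chains can join the same gamma1 trimers and did not move alike. They run from 250 bases before to 50 after a start site, 5′ to 3′ on the gene's strand, from RefSeq on GRCm38.p6, which is not the GRCm39 build named in the submitters' processing notes. Lama5 lies at chr2:180225810-180226109 on the minus strand, Lamb1 at chr12:31265043-31265342 on the plus strand, and Lamb2 at chr9:108479612-108479911 on the plus strand. Capitals mark the GC box word GGGCGG on either strand.
Lama5: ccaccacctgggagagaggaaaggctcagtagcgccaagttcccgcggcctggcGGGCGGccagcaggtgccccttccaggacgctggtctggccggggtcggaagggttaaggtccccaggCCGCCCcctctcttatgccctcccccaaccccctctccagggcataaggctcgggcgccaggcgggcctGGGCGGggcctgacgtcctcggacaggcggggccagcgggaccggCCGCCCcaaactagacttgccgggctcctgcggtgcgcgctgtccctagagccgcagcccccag
Lamb1: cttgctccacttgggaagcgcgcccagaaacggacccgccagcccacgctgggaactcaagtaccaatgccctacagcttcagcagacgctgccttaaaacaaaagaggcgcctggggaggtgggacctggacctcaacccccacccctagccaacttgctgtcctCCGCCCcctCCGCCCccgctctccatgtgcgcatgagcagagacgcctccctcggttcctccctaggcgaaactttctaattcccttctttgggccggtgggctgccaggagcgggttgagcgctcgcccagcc
Lamb2: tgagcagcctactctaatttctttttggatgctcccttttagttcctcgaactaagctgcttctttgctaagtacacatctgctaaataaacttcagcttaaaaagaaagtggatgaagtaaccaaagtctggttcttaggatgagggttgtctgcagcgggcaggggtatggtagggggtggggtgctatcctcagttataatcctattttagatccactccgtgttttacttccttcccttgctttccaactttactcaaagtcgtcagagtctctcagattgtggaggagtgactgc
The Lama5 promoter held 4 GC box words and 24 CpG dinucleotides at 72.7% G and C, and that of Lamb1 held 2 words and 18 CpG at 63.7%. The Lamb2 promoter held 0 words and 4 CpG at 44%, against a median of 7 CpG and 52.7% over the 32851 promoters of the table. A GC box word was present in 35.7% of those promoters. The word CAGAC, the core of Smad binding sequences, was found once in the Lama5 and Lamb1 windows and at 2 places in that of Lamb2, and 49.6% of all promoters hold it. CACGTG and TATAAA, read on both strands like the others, were in none of these windows and in 7.15% and 13.6% of all promoters. None of the 4 words contains another, and such matches describe the letters only. Promoters were matched for 5 of the 8 chains. Of the matched chains not shown, Lamb3, which fell, held 0 GC box words at both start sites, 1 and 2. Its windows held 2 and 5 CpG at 59.3% G and C each. Lama2, which was not tested for change, held 1 word and 1 CpG at 50.3%. Any link between these letters and the changes was not tested.

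Lama5 encodes the alpha5 chain of the mature glomerular basement membrane and drew the most reads of the 8 chains. It had 19748, 20481 and 19336 reads in the WT-labelled libraries and 16278, 17278 and 15986 in the KO-labelled libraries. These are 567 ± 12.7 CPM against 428 ± 16 CPM (SD, n = 3 each; CPM scaled by edgeR's TMM factors). Every KO-labelled library was lower, by a modest step. On the log2 scale the change came to -0.41 (SE 0.033, 95% interval -0.48 to -0.34; adjusted p = 3.6e-08, edgeR). Of all genes tested, 66.3% changed by more than Lama5 in size.

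Lama1 encodes the alpha1 chain of embryonic basement membranes and was rare. Its reads numbered 31, 40 and 20 under the WT label against 5, 5 and 5 under the KO label. All KO-labelled libraries lay well below the lowest of the other label. The change in log2 terms was -2.71 (SE 0.42; adjusted p = 3.3e-05, edgeR), and the summed reads gave a 6.69-fold fall with an exact 95% interval of 3.85 to 12.4, which covers counting error only.

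Lama3, the alpha chain of the anchoring laminin of skin and other epithelia, was also rare. It had 55, 40 and 51 reads against 19, 13 and 13, with no overlap. The fitted change was -1.83 on the log2 scale (SE 0.30; adjusted p = 5.2e-05, edgeR), and the ratio of summed reads was 3.58-fold lower (exact interval 2.55 to 5.11). Lama2, the alpha chain of muscle and peripheral nerve, was at the edge of detection and did not pass the filter on low counts. It had 0, 1 and 6 reads in the WT-labelled libraries and 0, 0 and 1 in the KO-labelled libraries, and 6 of the 7 reads of the former came from replicate 3. The ratio of its summed reads was 0.13 with an exact interval of 0.0029 to 1.01, so no difference was detectable at this depth.

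Lamb2, the beta2 chain that replaces beta1 as the glomerulus matures, was the one chain that rose. Its reads were 5948, 5840 and 5916 under the WT label and 8835, 9253 and 9024 under the KO label. In CPM this was 169 ± 2.6 against 234 ± 5.4 (SD, n = 3 each). Even the lowest KO-labelled library exceeded the highest WT-labelled one by far more than the spread within a label. On the log2 scale the change came to 0.47 (SE 0.032, 95% interval 0.41 to 0.54; adjusted p = 4.1e-09, edgeR).

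Lamb1, the widely used beta1 chain, moved the other way. It had 10160, 9994 and 9712 reads against 7176, 7681 and 7016, or 284 ± 5.8 CPM against 189 ± 8.3 CPM. On the log2 scale the change came to -0.59 (SE 0.036, 95% interval -0.67 to -0.51; adjusted p = 1.4e-09, edgeR), and the intervals of the 2 beta chains lay on opposite sides of 0. Lamb3, the beta chain of the epithelial anchoring laminin, fell further, from 1077, 1023 and 1089 reads to 633, 686 and 567. This was 30.4 ± 1.2 CPM against 16.3 ± 1.5 CPM, a log2 fold change of -0.90 (SE 0.071; adjusted p = 2.5e-08, edgeR).

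Lamc1 encodes gamma1, the gamma chain of most trimers, and had the largest fall among the chains above 100 CPM. It had 12682, 12893 and 12570 reads in the WT-labelled libraries and 7958, 8312 and 7754 in the KO-labelled libraries. The CPM was 363 ± 2.2 against 208 ± 6.5 (SD, n = 3 each). Replicates of each label lay close together, and the gap between labels was many times their spread. On the log2 scale the change came to -0.81 (SE 0.031, 95% interval -0.88 to -0.74; adjusted p = 9.7e-12, edgeR), the smallest adjusted p of the 7 chains.

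**Figure D2:**
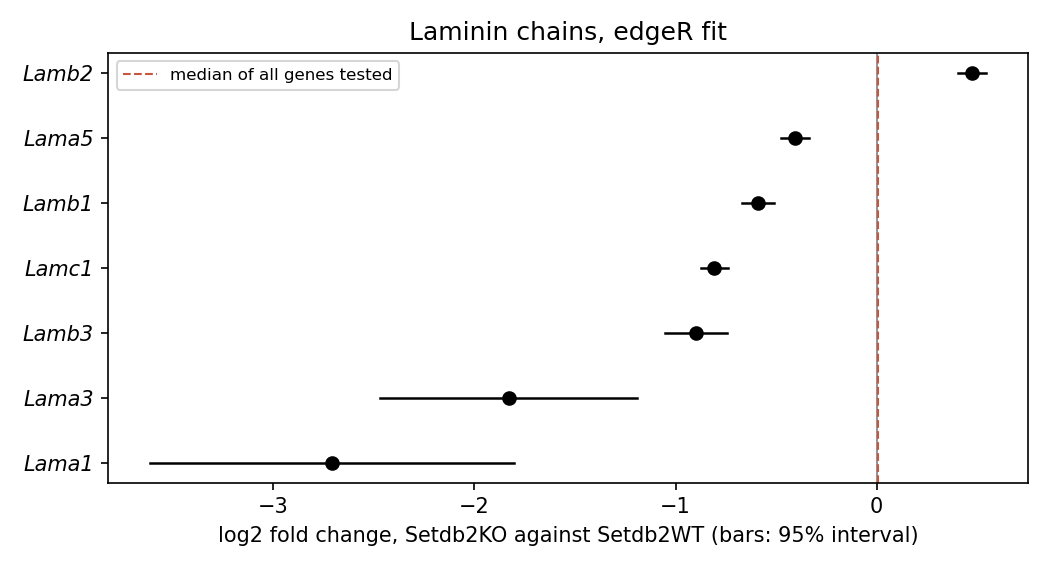
Log2 fold change of each of the 7 tested laminin chains (x axis), as points with 95% intervals from the edgeR fit, with the median of all genes tested as a dashed line. Lamb2, at 0.47, lies to the right of 0, and the other chains run from -0.41 (Lama5) to -2.71 (Lama1), with the widest intervals for the rare Lama1 and Lama3.

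Lamc3, a gamma chain that is no member of the 9 and was named here after its values were seen, had 26, 32 and 24 reads under the WT label against 11, 8 and 24 under the KO label (log2 fold change -1.06, SE 0.39; adjusted p = 0.022, edgeR). By reads, Setdb2KO replicate 3 was level with the lowest library of the other label.

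Reads per base of transcript allow the chains to be set beside each other, and the levels are given as reads per kilobase of the longest coding transcript, scaled to library size (RPKM). In the WT-labelled libraries the order was Lama5 at 49.8 ± 1.1, Lamb1 at 49.2 ± 1.0, Lamc1 at 47.7 ± 0.29, Lamb2 at 30.0 ± 0.46 and Lamb3 at 6.24 ± 0.25 (SD, n = 3). The first 2 overlapped between libraries, whereas Lamc1 lay just below Lamb1, and the scarce chains Lama3 (0.132 ± 0.022), Lama1 (0.0909 ± 0.029) and Lama2 (0.00696 ± 0.0096) followed, with Lama3 and Lama1 overlapping. Under the KO label Lamb2 came first at 41.6 ± 0.95, followed by Lama5 at 37.6 ± 1.4, Lamb1 at 32.7 ± 1.4, Lamc1 at 27.2 ± 0.85 and Lamb3 at 3.35 ± 0.30, with no overlap between neighbours. Lamb2 thus passed from the fourth place to the first. These places depend on the length used. With all annotated exons, Lamb1 was at 28.7 RPKM under the WT label, next to 27.7 RPKM for Lamb2. Under the KO label Lamb2 and Lama5 then overlapped between libraries, at means of 38.5 and 37.6 RPKM.

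Among the beta chains, Lamb2 took 34.8%, 34.9% and 35.6% of the reads per base in the WT-labelled libraries and 53.4%, 52.8% and 54.7% in the KO-labelled libraries. Lamb1 went from 57.6% ± 0.66 to 42.1% ± 0.66, and Lamb3 from 7.31% ± 0.26 to 4.31% ± 0.30 (SD, n = 3 each). The lead among the beta chains therefore passed from Lamb1 to Lamb2 when measured per base of transcript. With all annotated exons as the length, Lamb2 went from 45.5% to 64.2%. The alpha chains showed no such exchange, since Lama5 held 99.5% ± 0.023 and 99.9% ± 0.024 of the alpha reads per base. These shares do not depend on the scaling between libraries.

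**Figure D3:**
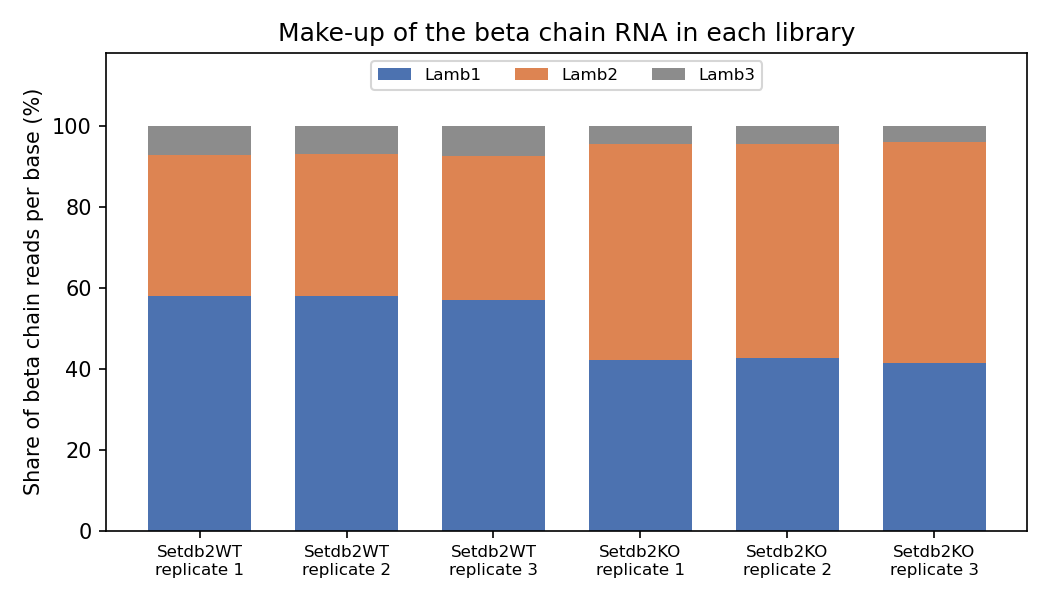
Share of each beta chain in the beta chain reads per base of longest coding transcript (y axis, percent), as a stacked bar for each of the 6 libraries. Lamb2 takes 34.8% to 35.6% in the Setdb2WT bars and 52.8% to 54.7% in the Setdb2KO bars, and Lamb1 shrinks in step.

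The sum of the beta chains moved less than either the alpha chains or Lamc1. It was 85.4 ± 1.3 RPKM under the WT label and 77.6 ± 2.4 RPKM under the KO label, a 1.10-fold fall. With scaling by total counts this turned to 80.9 against 81.8 RPKM. With all annotated exons as the length, the beta sum was 61.0 against 60.0 RPKM, and 57.8 against 63.3 RPKM by total counts. Its direction thus depended on the length and the scaling. Over the same libraries the alpha chains went from 50.04 ± 1.1 to 37.6 ± 1.4 RPKM, and Lamc1 from 47.7 to 27.2 RPKM. Both of these falls kept their direction with total counts, at 47.4 against 39.7 RPKM and 45.2 against 28.7 RPKM. Lamb2 was thus below Lamc1 per base under one label and above it under the other.

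Ratios of 2 chains inside a library need no scaling between libraries. The number of Lamb2 reads per Lamb1 read was 0.585, 0.584 and 0.609 in the WT-labelled libraries and 1.23, 1.205 and 1.29 in the KO-labelled libraries. On the log2 scale this was -0.75 ± 0.034 against 0.31 ± 0.048 (SD, n = 3 each), a difference of 1.06 or 2.09-fold, with the labels far apart. Lamb2 per Lamc1 moved by 1.28 on the same scale (2.43-fold), from -1.11 ± 0.031 to 0.17 ± 0.038. The chains that fell together also shifted against each other, by smaller amounts: Lama5 per Lamc1 by 0.40 and Lamb1 per Lamc1 by 0.22.

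Lama5 per Lama1 rose by 2.17 on the log2 scale (4.49-fold) and Lamb3 per Lama3 by 0.91. Neither pair overlapped between labels. Lama5 per Lama2 overlapped, with a difference of 0.97 that rests on the 8 Lama2 reads of the whole series. In an exact two-sided permutation test over the 6 libraries, 6 of the 7 ratios reached p = 0.1 (0.117 after Benjamini-Hochberg adjustment over the 7), the smallest p that 3 against 3 allows, and Lama5 per Lama2 gave p = 0.7. This design cannot reach 0.05 for a single ratio.

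**Figure D4:**
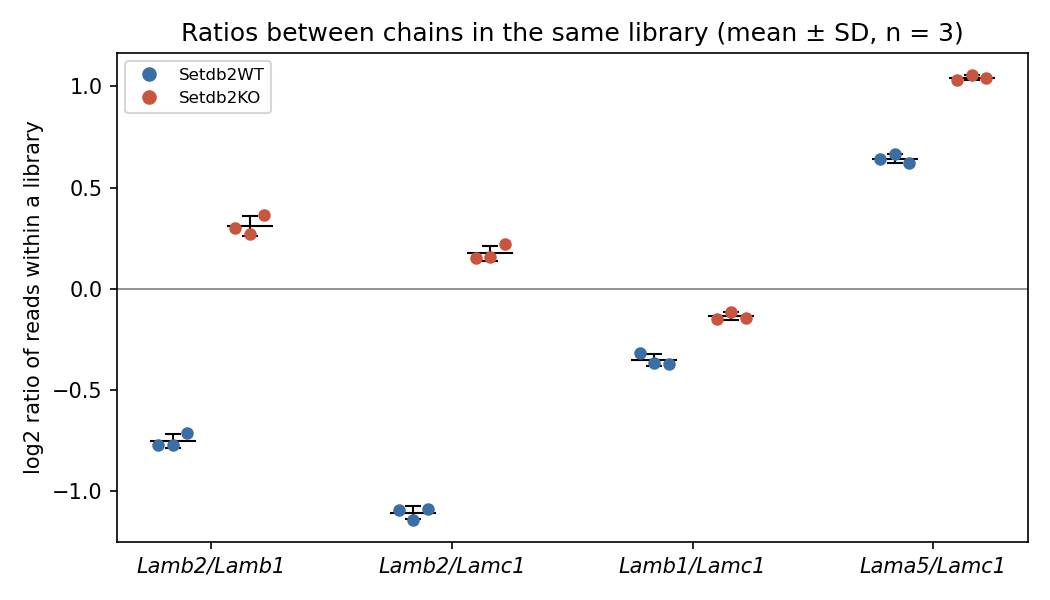
Log2 ratio of reads between 2 chains of the same library (y axis) for 4 pairs (x axis), with a point per library and black bars for the mean and SD of 3. Lamb2 per Lamb1 lies at -0.75 in the Setdb2WT libraries and 0.31 in the Setdb2KO libraries, and all 4 pairs are apart between the labels.

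The laminin transcripts are long, at 4867 to 11388 bases for the longest coding form of the 8 chains. Among genes tested, the longest decile (6653 bases or more) had a median log2 fold change of 0.11, with 48.0% higher and 38.9% lower. Lama1, Lama3, Lama5 and Lamc1 belong to that decile, Lamb1 and Lamb2 to the next one, and Lamb3 to decile 8. In a fit with an offset for length and GC content together, 6 chains were still called lower and 1 higher, with Lama5 at -0.55 and Lamb2 at 0.49. The part of transcript length alone in the laminin changes was not tested.

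Genes that act with laminins were taken from 6 lists, and the basement membrane partners had the lowest median. Of 25 tested, 22 fell and 3 rose, with a median log2 fold change of -1.23. The largest falls among those with at least 5 CPM were Npnt, a ligand of integrin alpha8 in the glomerular membrane (93.1 ± 1.3 to 4.90 ± 0.18 CPM), and Sparc, a collagen-binding protein (842 ± 17 to 178 ± 8.5 CPM). Col4a5, a collagen chain of the mature glomerular membrane, rose 1.15-fold. The members Nid2, Agrn and Col4a1, named after their values were seen, are a linker of laminin to collagen, a laminin-binding proteoglycan and a collagen chain, and they fell 3.04-fold, 2.12-fold and 2.34-fold. Nid1, the other nidogen, was near 0, with 31 reads over the WT-labelled libraries and 7 over the KO-labelled ones.

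Of 31 tested receptors and their partners, 18 fell and 10 rose (median -0.56), and 3 missed the threshold. Sdc1, a heparan sulfate proteoglycan of the cell surface, fell 8.65-fold and Cd151, a tetraspanin that binds laminin-binding integrins, 3.56-fold. Kank1, an adaptor at focal adhesions, rose 1.71-fold and Sgce, a sarcoglycan, 1.57-fold. Below 5 CPM, Itgb4, the beta chain of the hemidesmosome integrin, had 2, 10 and 7 reads in the WT-labelled libraries. It had 70, 60 and 52 in the KO-labelled libraries. Itga6, the more abundant alpha chain of that integrin, fell from 35.2 ± 2.2 to 11.5 ± 0.52 CPM. Itgb4 and Itga6 were named after their values were seen. The pair that forms the main laminin integrin of podocytes was named after its values were seen: Itga3 fell from 957 ± 18 to 367 ± 11 CPM, and Itgb1 had 941 ± 7.1 and 917 ± 19 CPM (adjusted p = 0.21, edgeR). Dag1, the dystroglycan that binds the globular end of alpha chains, fell 2.70-fold. Rpsa is known both as a ribosomal protein and as a laminin receptor, and its fall of 2.15-fold is uncertain because processed copies can share its reads.

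Laminin binds dystroglycan through a sugar chain, and of 17 tested genes for its making 11 fell and 5 rose (median -0.29). Gmppb, which supplies activated mannose, and Pomgnt1, a sugar transferase, each fell by about the same amount (3.41-fold and 3.40-fold). Dpm2, a subunit of the dolichol mannose synthase, rose 1.22-fold. Among 12 tested enzymes that cut laminin chains 7 fell and 3 rose (median -0.45). The cysteine proteases Ctsb and Ctsl rose 1.86-fold and 1.49-fold, and the metalloproteases Mmp14 and Mmp2 fell 2.88-fold and 2.70-fold.

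Of 22 tested genes for folding and secretion of large matrix proteins 16 fell and 2 rose (median -0.64). Pdia6 and Pdia4, disulfide isomerases of the endoplasmic reticulum, fell 4.82-fold and 4.498-fold, while Sar1b and Sec24a, parts of the coat of vesicles that leave it, rose 1.63-fold and 1.54-fold. Among 15 tested proteins with laminin-type domains 8 fell and 5 rose (median -0.63), with Celsr1, a cadherin of planar cell polarity, 4.95-fold lower and Pros1, protein S of blood clotting, 2.27-fold lower. No gene of that list that rose had a mean of 5 CPM. For each of the 6 lists the counts stand beside 42.3% lower and 41.5% higher over all genes tested. Under total-count scaling, which gave 4833 genes lower and 6550 higher in place of 5711 and 5607, the receptors had 16 lower and 13 higher and the glycosylation genes 8 and 6. The folding genes then had 15 lower and 5 higher, the genes with laminin-type domains 8 and 7, the enzymes 7 and 4, and the basement membrane partners 21 and 3.

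**Figure D5:**
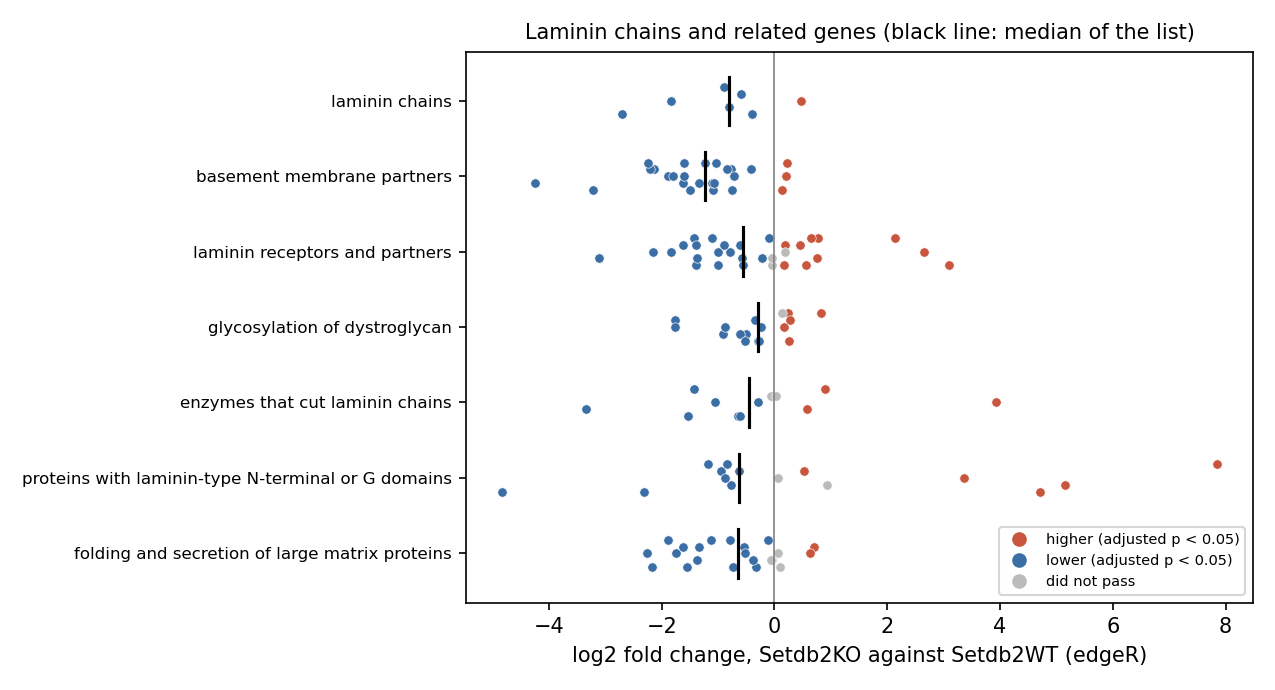
Log2 fold change (x axis) of every tested gene of the 7 laminin chains and the 6 related lists (y axis), coloured by call, with a black line at each list's median. The medians run from -1.23 (basement membrane partners) to -0.29 (glycosylation of dystroglycan), and the points furthest right are genes with almost 0 reads under the WT label, whose fitted values are no bounds.

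The nearest patterns to each tested chain were sought among the 122 other tested genes of these lists. The measure was the Euclidean distance of log2 CPM centred on each gene's mean over 6 libraries. A small constant was added to CPM before the log, which shrinks the changes of rare genes. Lamc1 was closest to Fn1, fibronectin (distance 0.0377), and Fat1, a giant cadherin (0.050), with log2 fold changes of -0.83 and -0.77 beside its own -0.81. Lama5 was closest to Sec31a and Tinagl1 (0.062 and 0.0911), Lamb1 to Parva and Ntn1 (0.0709 and 0.0932), and Tln1, talin, was among those near Lamb3 (0.162). Lamb2 was closest to Sdc4, a syndecan, and Ctsl (0.117 and 0.149), which rose as it did. Where replicates lie close together, this distance is mostly the difference in fold change. Alike changes of a chain and its neighbours therefore follow from how the neighbours were chosen. For the rare Lama1 and Lama3 the nearest genes lay further off, at 0.596 (Sec24d) and 0.446 (Gmppb), with Celsr1 and Pxdn second. Lama1 itself changed by -2.71, against -1.88 for Sec24d and -2.31 for Celsr1, so its matches depend on the added constant.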

How the data were processed

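RNA of 6 samples was sequenced, and the authors deposited raw counts, with 1 row per gene and 1 column per library. Per the submitters' processing notes, fastp, HISAT and HTSeq were used with the GRCm39 build. These sources state no versions, gene annotation or strandedness, so reads of overlapping or antisense genes cannot be told apart. Columns were matched to samples by genotype and replicate number, and 0 were left over.

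The whole table was fitted with edgeR 4.0.16 in R 4.3.3 (TMM, filterByExpr with a minimum count of 10, quasi-likelihood F test, genotype as the only term), with Benjamini-Hochberg adjustment over 13509 genes. Intervals of read ratios are exact (Clopper-Pearson, 95%). Ratios of chains used the count plus 0.5. Lengths were taken from GENCODE M21 transcripts on GRCm38, a build other than the authors', for lengths only. Totals of 36461449 to 37129174 reads leave wide counting error for genes with few reads. Every replicate pair differed by more than sampling noise (chi-square per degree of freedom 2.51 to 2.65 under the Setdb2WT label, 4.22 to 14.8 under the other). Scripts were tested on simulated counts.

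The chains, lists and tests were chosen with earlier results of these data known. Named genes were the chains, Setdb2, and from each list the 2 largest rises and falls past the test with a mean of at least 5 CPM and no overlap, plus the nearest patterns; others are marked as chosen later, and some genes that the rule names are not reported here. Alternatives were other scalings (by total count, by upper quartile, by the size factors of DESeq2 1.42.0), other tools (that package's Wald test, voom of limma 3.58.1), no filter, a filter of 1 CPM in 3 libraries, a replicate block, each library left out, glmTreat at 1.5-fold and an offset for length and GC content.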

Additional observations from a re-analysis of the deposited data

How the results depend on the processing

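The 7 tested chains kept their direction under every scaling, filter and tool tried, and their call under all of them but glmTreat against a 1.5-fold change. Lama1 gave no value under the filter of 1 CPM in 3 libraries, since it was not tested there. With glmTreat, which called 45.4% of genes, 4 chains were lower and 0 higher: Lama5 (-0.41), Lamb1 (-0.59) and Lamb2 (0.47) no longer passed (adjusted p of 1, 0.39 and 1, glmTreat in edgeR). There the genes called higher came to 0 of the basement membrane partners, 4 of the receptors, 1 of the glycosylation genes (with 3 lower) and 1 of the folding genes. The filter of 1 CPM left 2 genes with laminin-type domains called higher in place of 5, and total-count scaling gave 5 folding genes higher in place of 2. Total-count scaling moved the median of all genes by 0.15 (log2), with Lama5 at -0.25 and Lamb2 at 0.63. An offset for length and GC content gave Lama5 at -0.55 and Lamb2 at 0.49. A higher bar and a smaller set of genes are built into glmTreat and the CPM filter, and the cause of the other shifts was not tested.

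Leaving out 1 library at a time gave log2 fold changes of -2.95 to -2.48 for Lama1, -2.03 to -1.74 for Lama3, -0.44 to -0.39 for Lama5, -0.63 to -0.57 for Lamb1, 0.44 to 0.49 for Lamb2, -0.96 to -0.83 for Lamb3 and -0.83 to -0.79 for Lamc1, with 6 lower and 1 higher each time. The Lamb2 per Lamb1 ratio moved by 1.04 to 1.09. Lama5 per Lama2 ranged from -0.021 to 1.84, and it turned to -0.021 without Setdb2WT replicate 3, which holds 6 of the 7 Lama2 reads of its label. Equal replicate numbers did not pair the libraries (correlations of 0.00072, -0.03 and -0.012). A replicate block left the 6 lower and 1 higher chains as they were (Lama5 -0.41, Lamb2 0.47), with 5529 genes higher and 5661 lower over the table. A paired sign-flip test of the ratios cannot go below an exact p of 0.25. Depth limits Lama2 (8 reads in all) and widens the intervals of Lama1 and Lama3.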
